A study of Drosophila melanogaster with 6 samples.

Results

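The vacuolar proton ATPase (V-ATPase) genes of Drosophila melanogaster were followed in embryos lacking FoxL1, a forkhead transcription factor, and in wild-type embryos. Members were taken as the genes whose current symbol starts with Vha and that had a probe set naming 1 gene, and the probe set with the highest mean over the arrays stood for each gene. Of the 33 genes so named in the RefSeq gene table (Release 6 plus ISO1 MT), 31 had such a probe set, among 11982 genes measured on the array. The other 2, Vha68-1 and Vha68-2, are copies of catalytic subunit A and were not analysed here, so only Vha68-3 stands for that subunit. The null embryos carried the genotype foxLCr/foxL1del, also written foxL1del/foxL1cr, and were collected from null flies, and the wild-type embryos were Oregon R. Each genotype had 3 Affymetrix Drosophila Genome 2.0 arrays of whole-embryo RNA, described in the design text as independent biological samples. All samples are labelled stage 11-15, although the protocol gives 8 h of collection and 11 h of ageing at room temperature. Each genotype came from its own stock, so the effect of the foxL1 alleles cannot be told apart from that of strain background. Nor can it be told apart from a difference in the mix of stages, since the stage label covers a range.

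The V-ATPase is a rotary pump that spends ATP to move protons across membranes. Its peripheral V1 sector holds the ATP-splitting head, a rotor stalk and stator stalks, and its membrane V0 sector holds the turning ring of c subunits and the stationary subunit a through which protons pass. In all animal cells it acidifies endosomes, lysosomes and secretory vesicles. In insects it also sits in the plasma membrane of epithelia such as the Malpighian (renal) tubule and the acid-secreting copper cells of the midgut, where it drives ion transport. Flies have a single gene for some subunits and several copies for others, some of them active mainly in the testis.

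All values are log2 probe set signals after robust multi-array averaging (RMA) by the authors, and all differences are null minus wild type on that scale. A call is an adjusted p under 0.05 in limma, with Benjamini-Hochberg adjustment over 18769 probe sets. Null array 3 stood apart in the 3' minus 5' differences of the RNA controls, though not in one direction. It had the lowest value for actin (0.20, against 0.67 to 0.82 on the other 5 arrays) and for eIF-4a (0.71, against 0.88 to 0.93), and the highest for GAPDH (0.62, against 0.43 to 0.53). Its array weight was 0.317, the lowest of the 6. FoxL1 itself read 4.23, 4.35 and 3.37 on the null arrays and 4.85, 5.12 and 5.01 on the wild-type arrays (difference -1.01, SE 0.25, limma adjusted p = 0.0489). Where its probe set lies relative to the deleted sequence was not known here, so a remaining signal checks nothing. Its call ended without null array 1 (0.0799) and without wild-type array 1, 2 or 3 (0.109, 0.133 and 0.155). The call also ended after another quantile normalization (0.0761), after centring of the arrays (0.0641) and with no moderation of the spread (0.22). As a yardstick for unexpressed genes, the 125 probe sets of odorant and gustatory receptor genes had a 90th percentile of 3.42, called the dark limit here, and a highest mean of 4.46.

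The V-ATPase genes with a clear signal were mostly somewhat lower in the null embryos, but few passed the threshold. Of the 31 members 3 fell, 0 rose and 28 did not pass. The falls were those of Vha100-4, a copy of the proton channel subunit a, to 53.5% of the wild-type signal, of Vha44, the stator subunit C, to 66.1%, and of Vha36-1, the rotor subunit D, to 74.8%. At an unadjusted p under 0.05, 15 of the 31 were lower and 0 higher, where 15.1% of all genes were lower and 12.0% higher. The share of members called lower, 9.68%, stands beside 4.0% of all 11982 genes called lower and 6.24% called higher. The 3 null values lay all below the 3 wild-type values for 15 of 31 members and all above for 1, where 17.8% of all genes were separated in the first way and 14.1% in the second. With 3 arrays per genotype the smallest 2-sided p of an exact permutation test is 0.1, and limma instead borrows the spread from all probe sets. With the replicate numbers as a block, 5 members fell, the 3 above with Vha13 and Vha100-5, beside 9.09% of all genes called lower in that fit.

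**Figure D1:**
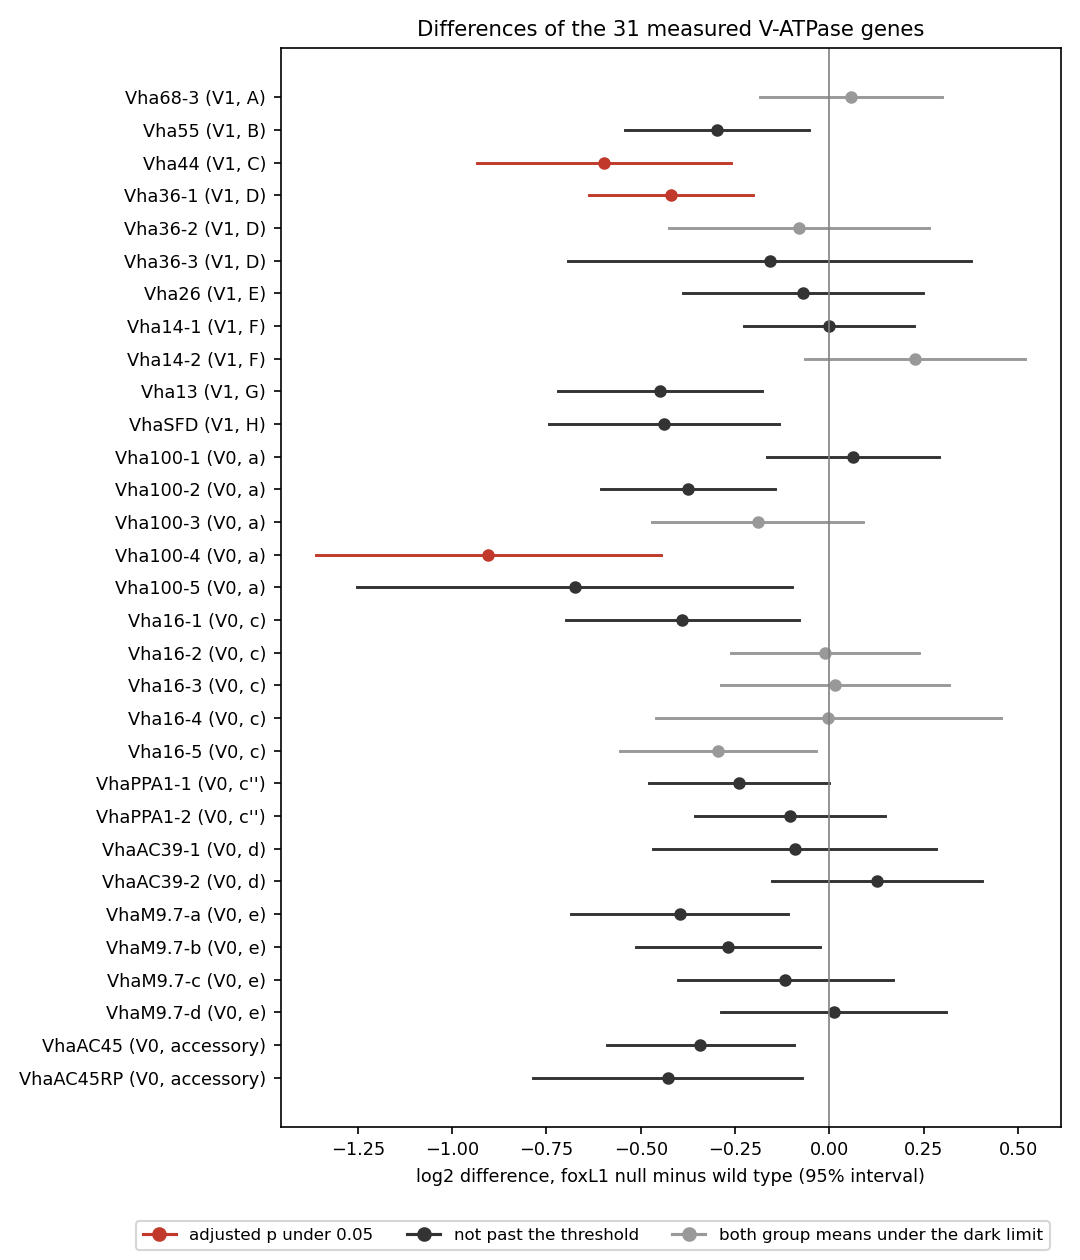
Log2 difference (null minus wild type, x axis) of each of the 31 measured V-ATPase genes with its 95% interval from limma, n = 3 arrays per genotype, with sector and subunit in brackets. The 3 genes in red passed the threshold, the grey genes lay under the dark limit in both genotypes, and most black intervals lie to the left of 0 or reach just past it.

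A split at a mean log2 signal of 5, chosen after the values were seen, set 20 clearly expressed members apart from 11 dim ones. Of the 20, 19 were lower in the null embryos, 14 without overlap, and 3 were called. Among the 7718 genes above the same level, 62.8% were lower, 22.7% were lower without overlap and 5.31% were called lower. The median difference of the 20 members was -0.36, beside -0.11 for those 7718 genes. Over all 31 members the median was -0.19, beside -0.07 for all genes, and 25 of the 31 were below 0, beside 60.0% of all genes. Centring each array on its own median moved the median of all probe sets by over 0.1, from -0.03 to 0.09, and then 15 of the 20 members were lower and their median was -0.24, beside 0.01 for the 7718 genes. Centring shifts all genes alike and so leaves the distance between the 2 medians, -0.25, as it is; over all alternatives that distance ran from -0.31 to -0.20.

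**Figure D2:**
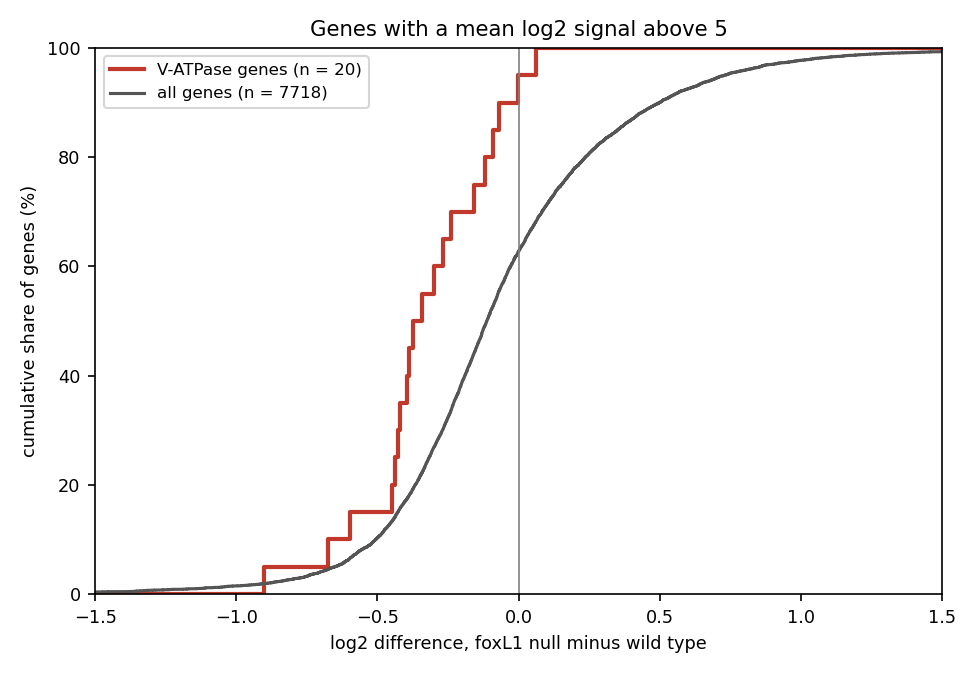
Cumulative share of genes (y axis, %) up to each log2 difference (x axis, null minus wild type) for the 20 V-ATPase genes and the 7718 genes with a mean log2 signal above 5. From a difference of -0.90 upwards the V-ATPase line lies to the left of the line of all genes, and it holds 19 of its 20 genes below 0, where the other line stands at 62.8%.

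In the V1 sector the stalk subunit genes ranged from called lower to a difference near 0, and differences between subunits were not tested. Vha44 encodes subunit C, the stator piece known to govern the reversible joining of V1 and V0. It read 8.83, 8.52 and 8.61 on the null arrays and 9.42, 9.00 and 9.35 on the wild-type arrays. The groups did not overlap, and wild-type array 2 lay closest to the null values (difference -0.60, SE 0.15, 95% interval -0.94 to -0.26, limma adjusted p = 0.0482). Vha36-1 encodes subunit D, the central axle that turns inside the head. It read 10.06, 9.98 and 10.09 in null embryos and 10.47, 10.43 and 10.48 in wild-type embryos. The spread within each genotype was small, with an SD of 0.05 in the null and 0.03 in the wild-type group, and the gap between the groups exceeded it (difference -0.42, SE 0.09, adjusted p = 0.0355).

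Both V1 calls were sensitive to single arrays. Leaving out null array 1, 2 or 3 ended the call of Vha44 (limma adjusted p = 0.0668, 0.105 and 0.105), and so did leaving out wild-type array 1 (0.166) or 3 (0.18). Vha36-1 lost it without null array 1 or 2 (0.0857 and 0.0844) and without wild-type array 1, 2 or 3 (0.134, 0.106 and 0.15). Another quantile normalization and centring of the arrays ended both calls as well, with 0.051 and 0.067 for Vha44 and 0.0879 and 0.158 for Vha36-1. With no moderation of the spread Vha44 had 0.168. The sign stayed negative in all 15 alternatives for both genes.

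The stator subunits G and H were lower without passing. Vha13, subunit G, read 11.10, 11.04 and 10.96 in null and 11.55, 11.29 and 11.60 in wild-type embryos, with no overlap (difference -0.45, SE 0.12, limma adjusted p = 0.0596). It passed with the replicate numbers as a block (adjusted p = 0.046). VhaSFD, subunit H, read 9.76, 9.78 and 9.50 in null and 10.22, 9.93 and 10.22 in wild-type embryos, again apart (difference -0.44, SE 0.13, adjusted p = 0.0945). Vha55, subunit B of the ATP-splitting head, read 10.15, 10.09 and 10.30 in null and 10.53, 10.39 and 10.52 in wild-type embryos, also apart (difference -0.30, SE 0.11, adjusted p = 0.148). For these 3 genes the groups were fully separated, without reaching the threshold.

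The V1 subunits E and F did not show such a difference. Vha26, subunit E of the stator, read 11.51, 11.48 and 11.14 in null and 11.45, 11.30 and 11.58 in wild-type embryos, and the groups overlapped (difference -0.07, 95% interval -0.39 to 0.25, limma adjusted p = 0.828). Vha14-1, subunit F, which sits on the same rotor as Vha36-1, read 10.96, 10.84 and 10.84 in null and 10.94, 10.85 and 10.86 in wild-type embryos. Both groups averaged 10.88, and the 95% interval of the difference ran from -0.23 to 0.22. The interval around the -0.42 of Vha36-1 ran from -0.64 to -0.20, so the 2 intervals overlapped slightly. Whether the 2 genes differ from each other was not tested. Vha36-3, another copy of subunit D, overlapped, with 6.40, 5.53 and 6.32 in null and 6.27, 6.08 and 6.38 in wild-type embryos. Its difference of -0.16 (SE 0.23) rested on null array 2 and was 0.12 without it.

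The V0 subunit a, the stationary side of the proton path, had 4 copies with a clear signal, of which 1 was called. Vha100-4, known mainly from the gut, read 6.88, 6.53 and 6.95 in null and 7.87, 7.29 and 7.92 in wild-type embryos. All null values lay below all wild-type values (difference -0.90, SE 0.20, 95% interval -1.36 to -0.45, limma adjusted p = 0.0325). The call ended when null array 1, 2 or 3 was left out (adjusted p = 0.0796, 0.0676 and 0.0565), likewise for wild-type array 1 (0.118) or 3 (0.128), and with no moderation of the spread (0.172). It held without wild-type array 2 (0.0152), with the replicate block (0.00219), after another quantile normalization (0.0431) and after centring (0.0275).

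Vha100-5 was lower in the same way but with a wider spread. It read 8.18, 7.42 and 8.20 in null and 8.75, 8.23 and 8.84 in wild-type embryos (difference -0.67, SE 0.25, limma adjusted p = 0.164). Array 2 was the lowest of each genotype, and with the replicate block the gene passed (adjusted p = 0.0074). Vha100-2, the copy used in many epithelia and the next gene to Vha100-4 in the RefSeq gene order, read 9.41, 9.38 and 9.34 in null and 9.77, 9.65 and 9.84 in wild-type embryos. The groups were apart, with a difference of -0.37 (SE 0.10, adjusted p = 0.0637), and it passed with array weights (0.0266) and among the brighter 50% of probe sets (0.0472). Vha100-1, the copy known for its role at neuronal synapses, read 9.30, 9.25 and 9.14 in null and 9.13, 9.22 and 9.15 in wild-type embryos, overlapping (difference 0.06, 95% interval -0.16 to 0.29, adjusted p = 0.78). It was the only clearly expressed member above 0.

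**Figure D3:**
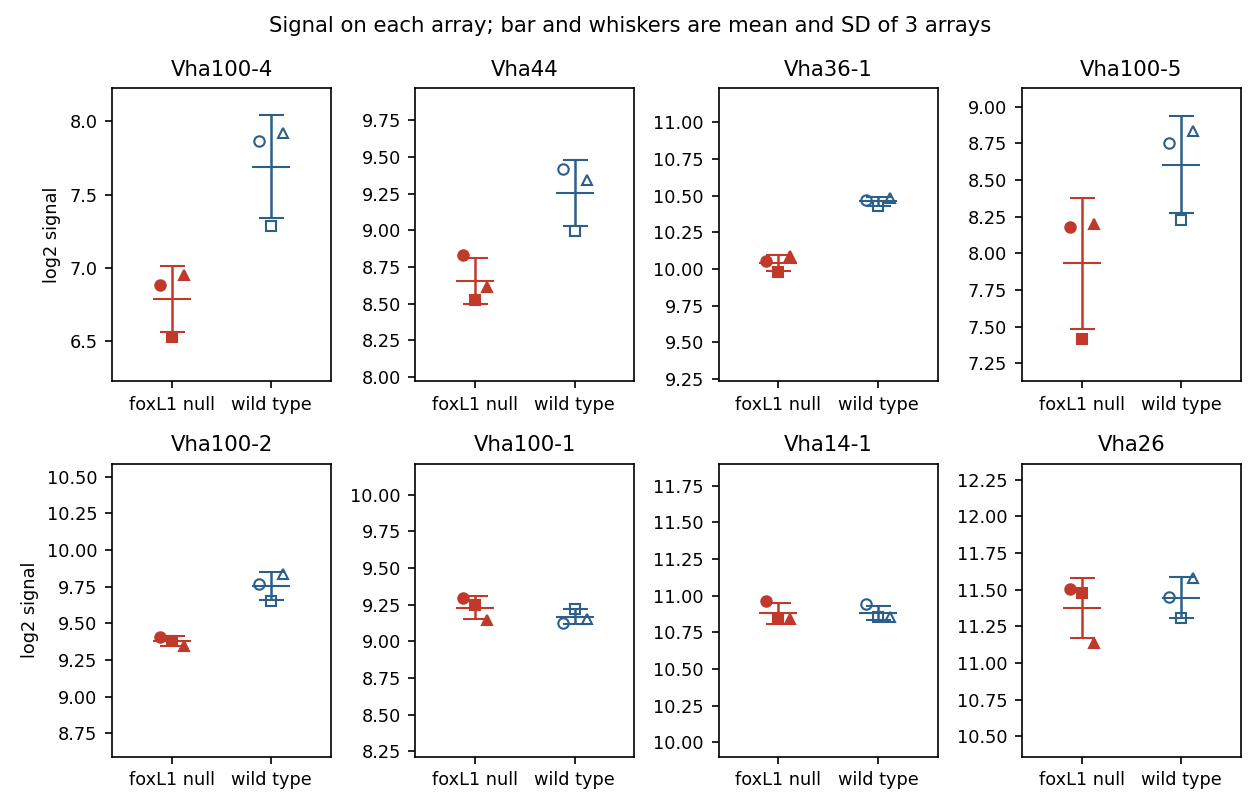
Log2 signal (y axis, a window of 2 units in every panel) on each null and wild-type array for 8 V-ATPase genes, where symbols mark the replicate number and bars with whiskers the mean and SD of 3 arrays. Vha100-4, Vha44, Vha36-1, Vha100-5 and Vha100-2 are separated between the genotypes, and Vha100-1, Vha14-1 and Vha26 overlap.

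The ratio of 2 copies within an array does not depend on the scaling between arrays, and all 6 pairs of the 4 subunit a copies were compared in this way. The log2 ratio of Vha100-1 to Vha100-4 was 2.44 ± 0.26 in null and 1.48 ± 0.40 in wild-type embryos (SD, n = 3 each; exact permutation test, 2-sided p = 0.1, the smallest that 3 against 3 arrays allow, and 0.2 adjusted over the 6 pairs). That of Vha100-1 to Vha100-2 was -0.15 ± 0.05 in null and -0.59 ± 0.14 in wild-type embryos, and that of Vha100-2 to Vha100-4 was 2.59 ± 0.24 in null and 2.06 ± 0.26 in wild-type embryos, with the same exact p. In these 3 pairs the genotypes did not overlap. In the 3 pairs with Vha100-5 they did, with exact permutation p-values of 0.2 to 0.5 before adjustment. No pair could pass at 0.05 with this number of arrays, so a difference between the copies was not established.

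The ring subunits gave small negative differences. Vha16-1, the main proteolipid subunit c of the ring, read 11.94, 11.66 and 11.54 in null and 12.11, 11.98 and 12.21 in wild-type embryos by its brighter probe set, with no overlap (difference -0.39, SE 0.13, limma adjusted p = 0.136). Its second probe set overlapped and differed by -0.10 (SE 0.11, adjusted p = 0.701). VhaPPA1-1, the related subunit c'' of the ring, read 10.63, 10.52 and 10.65 in null and 10.89, 10.73 and 10.90 in wild-type embryos, apart by little (difference -0.24, SE 0.10, adjusted p = 0.23). VhaAC39-1, subunit d, which couples the ring to the rotor stalk, read 10.36, 10.22 and 10.75 in null and 10.59, 10.35 and 10.66 in wild-type embryos. Its groups overlapped, null array 3 being the highest of the 6 (difference -0.09, SE 0.16, adjusted p = 0.809).

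The small subunit e has 4 copies, of which 3 were clearly expressed. VhaM9.7-a read 8.36, 7.99 and 8.14 in null and 8.65, 8.48 and 8.56 in wild-type embryos (difference -0.40, SE 0.12, limma adjusted p = 0.105). VhaM9.7-b read 10.37, 10.34 and 10.19 in null and 10.64, 10.47 and 10.59 in wild-type embryos (difference -0.27, SE 0.11, adjusted p = 0.19). Both were apart between the genotypes. VhaM9.7-c overlapped, with 8.38, 8.63 and 8.60 in null and 8.55, 8.81 and 8.60 in wild-type embryos (difference -0.12, SE 0.12, adjusted p = 0.656).

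The accessory proteins of V0 resembled the subunits. VhaAC45, a membrane protein that binds V0, read 10.57, 10.42 and 10.44 in null and 10.87, 10.69 and 10.89 in wild-type embryos (difference -0.34, SE 0.11, limma adjusted p = 0.105). Its relative VhaAC45RP read 8.75, 8.51 and 8.18 in null and 8.94, 8.82 and 8.96 in wild-type embryos (difference -0.43, SE 0.15, adjusted p = 0.155). Neither overlapped between the genotypes and neither passed.

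By sector the clearly expressed members looked alike. The 8 of V1 had a median difference of -0.36 and the 12 of V0 also -0.36, with 2 and 1 called. The 12 measured copies known as the main ones in fly epithelia had a median of -0.34, with all 12 below 0, 9 without overlap and 2 called. The 8 other clearly expressed copies and accessory genes had a median of -0.37, with 7 below 0, 5 without overlap and 1 called. Beside these counts, 62.8% of the 7718 genes above the same level were below 0, 22.7% were lower without overlap and 5.31% were called lower. Centring, which adds the same amount to every gene, put Vha14-1, Vha26, VhaAC39-1 and VhaM9.7-c, besides Vha100-1, above 0, so the count of members below 0 depends on the scaling. In whole embryos, fewer cells with much pump and less pump RNA per cell cannot be told apart.

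Most remaining copies were close to the signal of unexpressed genes. In both genotypes 8 members had means under the dark limit: Vha68-3 of subunit A, Vha36-2 of D, Vha14-2 of F, Vha100-3 of a, and Vha16-2, Vha16-3, Vha16-4 and Vha16-5 of c. They read 2.16 to 3.64 over all arrays and differed by -0.30 to 0.23. None was called (lowest limma adjusted p 0.175), and 1 had an unadjusted p under 0.05, Vha16-5, at 2.80, 2.64 and 2.52 in null and 2.87, 3.02 and 2.95 in wild-type embryos. Vha14-2 was the only member higher in null embryos without overlap, at 3.34, 3.24 and 3.63 against 3.11, 3.21 and 3.22 in wild-type embryos (adjusted p = 0.362). A further 3, VhaAC39-2, VhaPPA1-2 and VhaM9.7-d, lay above the dark limit but under 5 and overlapped, with differences of -0.10 to 0.13. Signals this close to those of receptor genes say little about either genotype.

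The 20 clearly expressed members were also summarised array by array. Measured from each gene's wild-type mean, their median was -0.23, -0.39 and -0.38 on null arrays 1, 2 and 3, and 0.05, -0.12 and 0.08 on wild-type arrays 1, 2 and 3. Wild-type array 2 was the lowest wild-type array for 18 of the 20 members, and null array 2 was the lowest of all 6 arrays for 10 and null array 3 for 8. For the 7718 genes above the same level the medians were -0.05, -0.06 and -0.16 on the null arrays and 0.00, 0.02 and -0.02 on the wild-type arrays. Without null array 3, the array that stood apart in the RNA controls, the median of the 20 was -0.31, 17 were below 0 and 1, Vha36-1, was called. Without null array 1 or 2 or wild-type array 1 or 3, limma called 0 of the 31 members, with 13, 10, 9 and 7 lower and 0 higher at an unadjusted p under 0.05. Without wild-type array 2, 2 were called, Vha44 and Vha100-4.

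**Figure D4:**
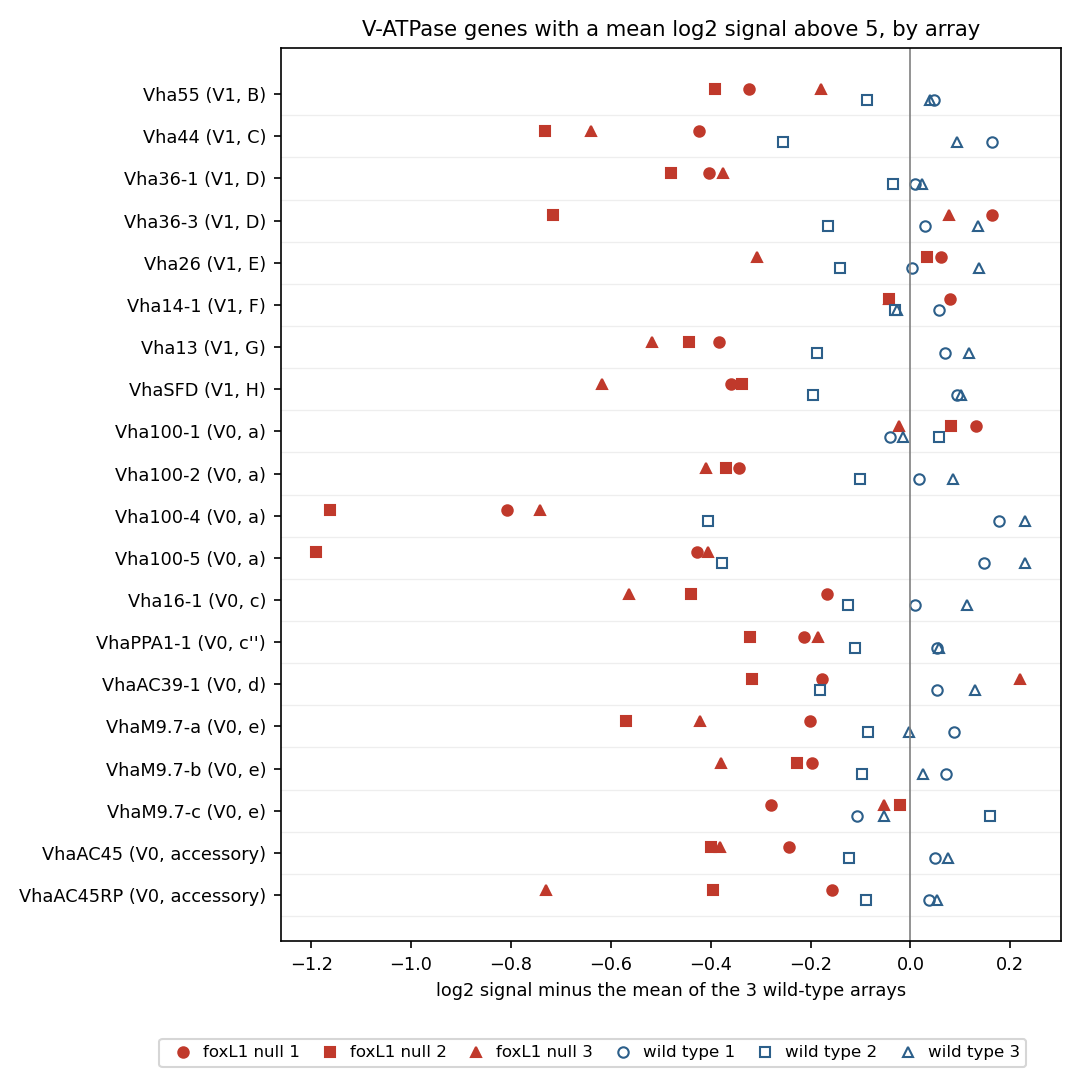
Log2 signal of each of the 20 clearly expressed V-ATPase genes on each array, minus the gene's mean over the 3 wild-type arrays (x axis), null arrays filled and wild-type arrays open. Null values lie to the left of the wild-type values for 14 genes, and the open square of wild-type array 2 is the leftmost open symbol for 18.

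Genes that regulate or accompany the pump were compared from lists. The shares of all genes to read the list counts against are 4.0% called lower, 6.24% called higher, 9.09% called lower with the replicate block, 15.1% lower and 12.0% higher at an unadjusted p under 0.05, and 60.0% below 0. Of 10 measured V-ATPase regulators and lysosomal TOR partners, limma called 0, with 2 lower and 2 higher at an unadjusted p under 0.05, and their median was -0.03. ATP6AP2, the prorenin receptor homologue that associates with V0, read 10.59, 10.32 and 10.36 in null and 10.93, 10.69 and 10.93 in wild-type embryos (difference -0.42, SE 0.12, limma adjusted p = 0.087), and it passed with the replicate block (0.0458). The Ragulator subunit genes, whose products tie the pump to TOR signalling on lysosomes, did not pass either. Lamtor5 was at 0.31 (SE 0.10, adjusted p = 0.121) and Lamtor1 at 0.29 (SE 0.12, adjusted p = 0.229), the second passing without null array 3. RagC-D, a GTPase gene of TOR signalling on lysosomes, was at -0.36 (SE 0.14, adjusted p = 0.177). Mitf, named after its values were seen because its product is known to activate V-ATPase genes in flies, differed by 0.03 (SE 0.11, adjusted p = 0.909).

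Among 17 lysosomal genes limma called 0, with 1 lower and 1 higher at an unadjusted p under 0.05 and a median of -0.11. The protease gene cathD was at 0.36 (SE 0.12, limma adjusted p = 0.131). Another protease gene, CtsB, was at -0.42 (SE 0.19, adjusted p = 0.248), the lipase gene Lip4 at -0.30 (SE 0.13, adjusted p = 0.222) and the thioesterase gene Ppt2 at -0.33 (SE 0.19, adjusted p = 0.396). With the replicate block 1 of the 17 was called lower. Whether lysosomal and V-ATPase genes differ as groups was not tested.

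Of 19 ion exchangers, channels and pumps 1 fell, 0 rose and 18 did not pass, with a median of -0.33; at this list size a single call is close to the 4.0% of all genes called lower. The fall was that of Irk3, an inward-rectifier potassium channel of the tubule, at 4.64, 4.55 and 4.27 in null and 5.76, 5.29 and 5.44 in wild-type embryos (difference -1.01, SE 0.16, limma adjusted p = 0.00909). Its groups did not overlap, its signal was 49.7% of the wild type, and the call held with any 1 array left out. Irk3 was dim, with a mean over all arrays of 4.99, just under the level of 5 used above. Its null mean of 4.49 lay close to 4.46, the highest mean of a receptor probe set, so the ratio carries that limit. The call of Irk3 ended with no moderation of the spread (adjusted p = 0.0879). The aquaporin gene Prip was at -0.54 (SE 0.15, adjusted p = 0.0853, and 0.031 with the replicate block), Irk1 at -0.36 (SE 0.15, adjusted p = 0.21) and nrv3, a subunit of the sodium pump, at -0.39 (SE 0.17, adjusted p = 0.242). With the replicate block 4 of the 19 were called lower, beside 9.09% of all genes: Irk3, Prip, Drip and CAH1, the last 2 named after their values were seen.

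Markers of tissues that rely on the pump lay mostly below 0. Of 17 Malpighian tubule genes, 1 fell, again Irk3, beside 4.0% of all genes called lower, and 15 were below 0, beside 60.0% of all genes, with a median of -0.32. With 1 array left out 13 or 14 were below 0, and after centring 12 were, with a median of -0.20. With the replicate block 5 were called lower, beside 9.09% of all genes: Irk3, byn, salt, Drip and Picot, the last also named after its values were seen. Summed on the linear scale, their signal was 1627 to 2093 on the null arrays and 2207 to 2317 on the wild-type arrays, and 3 of the 17 lay under the dark limit. Such a sum is weighted towards bright genes, here the factor genes tsh and cad, with wild-type means of 9.21 and 8.48. A gap in the sum was not particular to the tubule list. The ion exchanger list summed to 5674 to 5975 on the null arrays and 6195 to 7075 on the wild-type arrays. For the regulators and TOR partners the sums were 3767 to 4275 and 4465 to 4666, and those of the lysosomal list overlapped. Whether the sum follows the amount of tubule tissue was not tested. The hindgut and tubule factor gene byn was at -0.48 (SE 0.15, limma adjusted p = 0.0982, and 0.04998 with the replicate block), salt at -0.59 (SE 0.20, adjusted p = 0.133, and 0.0417 with the block) and cad at -0.26 (SE 0.10, adjusted p = 0.181). The tubule genes above 0, named after their values were seen, were ct at 0.20 (SE 0.12, limma adjusted p = 0.396) and SLC22A at 0.16 (SE 0.18, adjusted p = 0.693). Of 12 midgut genes limma called 0, with 4 lower and 0 higher at an unadjusted p under 0.05, beside 15.1% lower and 12.0% higher of all genes. Their median was -0.24, and their summed signal was 2738 to 3169 on the null arrays and 3048 to 4079 on the wild-type arrays. With 1 array left out the midgut median ran from -0.37 to -0.04, the latter without null array 2 or wild-type array 1. In those fits 7 to 11 of the 12 were below 0. After centring the midgut median was -0.12, with 9 below 0. Among the midgut genes were the GATA factor genes srp, at -0.58 (SE 0.17, adjusted p = 0.0934), and GATAe, at -0.37 (SE 0.15, adjusted p = 0.195). The copper cell regulator gene dve was at -0.32 (SE 0.10, adjusted p = 0.118). Another GATA factor gene of the list, GATAd, named after its values were seen, went the other way, at 0.25 (SE 0.13, limma adjusted p = 0.354). Genes of the list that do not encode factors lay further from the threshold, also named after their values were seen. Of these, mex1 was at -0.16 (SE 0.15, adjusted p = 0.624). The protease gene lambdaTry was at -0.24 (SE 0.25, adjusted p = 0.655) and betaTry at 0.04 (SE 0.58, adjusted p = 0.98). In the planned fit 10 of the 12 midgut genes were below 0. The part of tubule and midgut cell numbers in the V-ATPase differences was not tested.

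Neuron and testis genes gave 2 further comparisons. Of 11 synaptic and neuronal genes 1 fell, Snap25, a vesicle fusion gene, at 6.90, 6.78 and 6.78 in null and 7.41, 7.42 and 7.36 in wild-type embryos (difference -0.58, SE 0.10, limma adjusted p = 0.0111), beside 4.0% of all genes called lower. The call ended without wild-type array 1, 2 or 3 (0.0563, 0.0526 and 0.0539). Together the 11 genes had a median of -0.21, with 8 below 0, beside 60.0% of all genes. Their summed signal was 2810 to 3579 on the null arrays and 3144 to 3393 on the wild-type arrays. The neuronal gene elav, named after its values were seen, was at 0.18 (SE 0.23, limma adjusted p = 0.722). Of 16 testis genes 9 lay under the dark limit, as did most V-ATPase copies of low signal. The list held 1 rise, that of the Cdc25 phosphatase gene twe, which is also loaded into the egg (difference 2.23, SE 0.24, adjusted p = 0.00253), and 1 fall, that of mia (difference -0.75, SE 0.14, adjusted p = 0.0176). The call of mia ended without null array 1 (0.0632) and without wild-type array 1 or 2 (0.0726 and 0.0654). With no moderation of the spread neither twe nor mia passed (adjusted p = 0.0582 and 0.105). The testis list's median was 0.04, and its summed signal was 768 to 966 on the null arrays and 571 to 638 on the wild-type arrays. That gap came from twe: the other 15 genes summed to 446 to 563 on the null arrays and 498 to 579 on the wild-type arrays, which overlap.

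**Figure D5:**
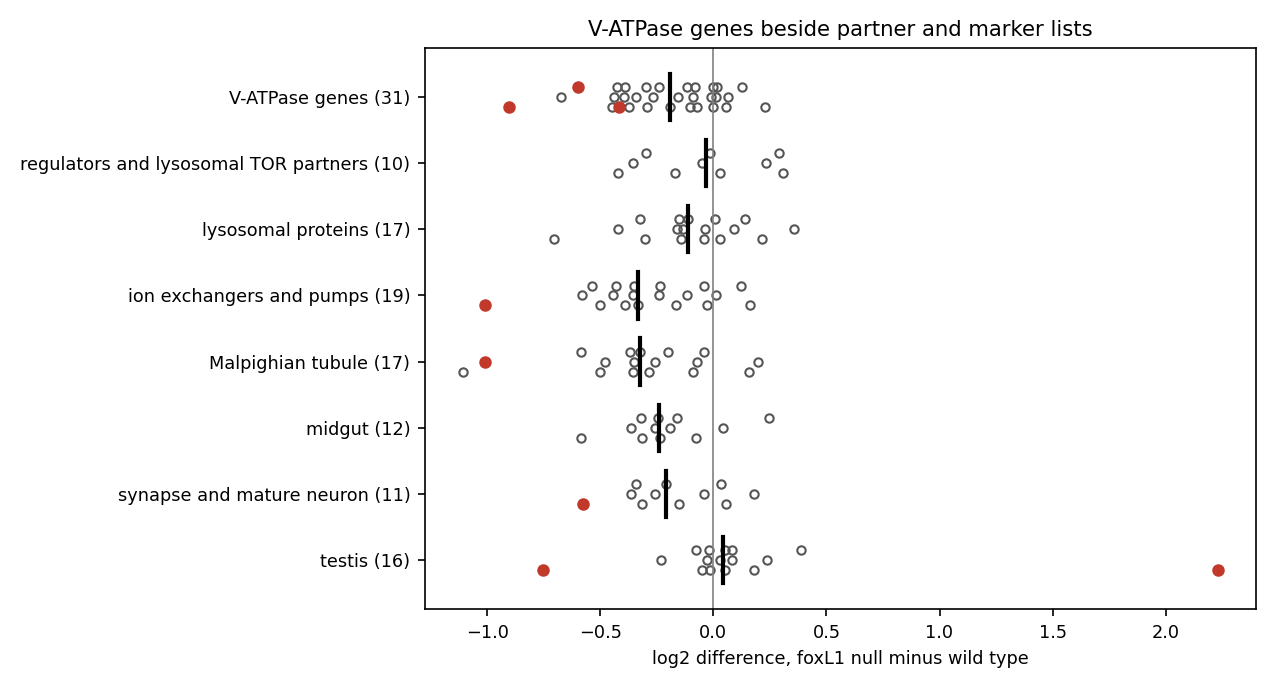
Log2 difference (null minus wild type, x axis) of each measured gene in the V-ATPase set and in 7 partner and marker lists, with filled red points for genes past the threshold, a black bar for each median and the number of genes in brackets. The V-ATPase median is -0.19, and those of the other lists run from -0.33 for ion exchangers and pumps to 0.04 for testis genes.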

How the data were processed

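The deposited values are log2 RMA signals, 1 column per array; the submitters' processing notes name Partek and RMA without versions, and no genome build enters here. The array medians ran from 4.87 to 4.94 in null and from 4.96 to 5.08 in wild-type samples, so the deposited arrays do not share one distribution. No detection calls were used; precision is limited by having 3 arrays per genotype. Of 18952 probe sets, 183 controls were left out; 13647 named 1 gene, 402 several and 4720 none, and 13544 took a current symbol by gene identifier. The model had genotype as its only term (limma 3.58.1, R 4.3.3, lmFit then eBayes), with Benjamini-Hochberg adjustment over 18769 probe sets. The fit was tested on simulated data. Members, the 7 lists and the naming rule (every member, FoxL1, up to 4 genes per list by smallest p) were chosen with earlier results of these data known. No 2 arrays held the same value at more than 0.0853% of probe sets.

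The titles carry numbers 1 to 3 in each genotype, and what a number stands for is unstated. Deviations from the group mean correlated between arrays of one number at 0.108, 0.544 and 0.224. Wild-type array 1 correlated more with null array 3 (0.266), so only the arrays of number 2 stood out as a pair. Taking the numbers as pairs is an assumption that the labels do not state. Calls that needed the replicate block rest on it. The replicate block is an alternative, beside leaving out each array, another quantile normalization, median centring, an intensity trend, array weights, no moderation, filters at the 25th and 50th percentiles and the mean of a gene's probe sets.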

Additional observations from a re-analysis of the deposited data

How the results depend on the processing

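The number of V-ATPase genes called, 3 in the planned fit, was 5 with the replicate block, 7 with array weights, 5 with the brighter 50% of probe sets alone, 1 each after another quantile normalization, after centring and with no moderation, and 0 to 2 with 1 array left out. No alternative called a member higher. The median of all measured members was -0.072 after centring and -0.36 among the brighter 50%. Centring also moved the split of all called probe sets, to 324 lower and 1179 higher beside 585 lower and 887 higher in the planned fit. Calls over all probe sets, 1472, were 2441 with the replicate block, 2460 with array weights, 562 with no moderation and 663 to 1513 with 1 array left out. Calls in the partner and marker lists, 4, were 12 with the block, 10 with array weights, 1 with no moderation and 2 to 6 with 1 array left out. The block changed the calls of 2 members, Vha13 and Vha100-5, and of no other member. Among the 20 clearly expressed members signs turned only for uncalled ones: Vha14-1 (-0.043 to 0.027 with 1 array left out, 0.10 after quantile normalization, 0.12 after centring, 0.048 with array weights), Vha26 (-0.14 to 0.047 with 1 array left out, 0.0098 after quantile normalization, 0.048 after centring), Vha36-3 (-0.32 to 0.12 with 1 array left out), VhaAC39-1 (-0.25 to 0.021 with 1 array left out, 0.027 after centring) and VhaM9.7-c (0.0014 after centring). The causes were not tested. Signal over background limits the 11 dim copies, and 3 arrays per genotype limit every call.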
